A study of Monodelphis domestica and Mus musculus with 26 samples.

Results

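Cells of the adult mouse testis were gated by marker counts to single out spermatocytes at the pachytene stage of meiosis. A cell was taken where its summed counts of Piwil1, Mybl1, Sycp1 and Sycp3 were 2.5 or more, those of the early meiotic genes Prdm9, Dmc1 and Meiob were below 0.5, and those of the late genes Ccna1, Aurka and Plk1 were below 1.5. In addition Acrv1 had to be below 1.5 counts, and Prm1, Prm2, Tnp1 and Tnp2 together below 1% of the counts. The rule found 896 cells among 25445 kept mouse cells, and these are called the marker-gated cells. They made up 1.09% (89 cells, exact binomial 95% interval 0.879 to 1.34), 1.76% (138 cells, 1.48 to 2.08) and 7.06% (669 cells, 6.55 to 7.60) of libraries 1, 2 and 3. These intervals, like all others here, cover counting error only. The cells were thus chosen by the measured counts of the 15 genes in the rule, which are described below without a test.

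The series compares gene regulation in spermatogenesis between mouse and opossum in 26 samples, of which the 3 droplet single-cell libraries of whole mouse testis were used. The labels describe the mice as adult males of 8 to 16 weeks. The strain is C57BL6/J in the sample labels of libraries 1 and 2 and in the shared protocol text for library 3. The labels call the libraries separate samples without saying how many animals each holds, so p-values rest on these 3 samples. In the gene-wise tests they set the differences between groups of cells within the libraries against a spread that edgeR estimates partly across genes. A very small p thus does not come from the consistency of that gene over 3 libraries alone. The comparison with all other cells and those with the gates come from separate fits, so their p-values are not compared with each other. Library sizes were uneven, with median counts of the kept cells of 2768, 4497 and 2962. Library 3 alone gave 669 of the 896 marker-gated cells. Libraries 1 and 2 shared 76 kept barcodes, libraries 1 and 3 shared 1, and libraries 2 and 3 shared 0.

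In pachytene, homologous chromosomes are held together along their length by the synaptonemal complex, which includes the SYCP3 and SYCP1 proteins. The transcription factor A-MYB, encoded by Mybl1, drives genes of the piRNA pathway, in which PIWI proteins such as PIWIL1 load small RNAs against transposons. The X and Y chromosomes, which pair only in a short region, are packed into the sex body and transcriptionally silenced, while autosomal copies of X-linked genes can take over.

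The label was checked against the X-linked share of each cell's counts, which the rule did not use, and it held for only some of the cells. The X-linked share of the marker-gated cells ran from near 0 to over 3%. Its median was 0.0863%, 0.0504% and 0.143% in cells under 1% in libraries 1 to 3. In cells at 1% or more the median was 1.94%, 1.91% and 2.27%, and 46 cells of library 3 were at 3% or more. In library 1, 23 of 89 cells (25.8%, exact 95% interval 17.1 to 36.2) had under 1% X-linked counts. In library 2 the number was 89 of 138 (64.5%, 55.9 to 72.4), and in library 3 it was 273 of 669 (40.8%, 37.1 to 44.6). In all, 385 cells (43.0%) lay under 1% and 511 at 1% or more, with 64 cells between 0.75% and 1.25%. Of the 20869 kept cells in none of the gates, 35.4% were under 1% (30.4%, 41.4% and 35.1% in libraries 1 to 3), so the gated share was below this in library 1 and above it in libraries 2 and 3. The boundary was set after the values were seen and marks a range, not a type, so the "low-X" and "high-X" cells are compared below as a description with no test.

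The same division appeared in spermatogonial genes. Of the low-X cells, 12 of 385 held 0.5 or more summed counts of 7 spermatogonial genes (Stra8, Dmrt1, Zbtb16, Sohlh1, Kit, Gfra1 and Sall4), against 357 of 511 high-X cells. Median total counts were 4864, 3860 and 2299 in the low-X cells of libraries 1 to 3 and 4953, 3360 and 2598 in the high-X cells. Mean counts per cell were 7549, 5812 and 4548 in low-X and 5920, 4013 and 3076 in high-X cells, higher in the low-X cells of each library. The 8% of kept cells with the highest doublet scores took in 21 low-X and 42 high-X cells. Because most of the gated cells went against the label, they are not called pachytene as a whole.

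**Figure D1:**
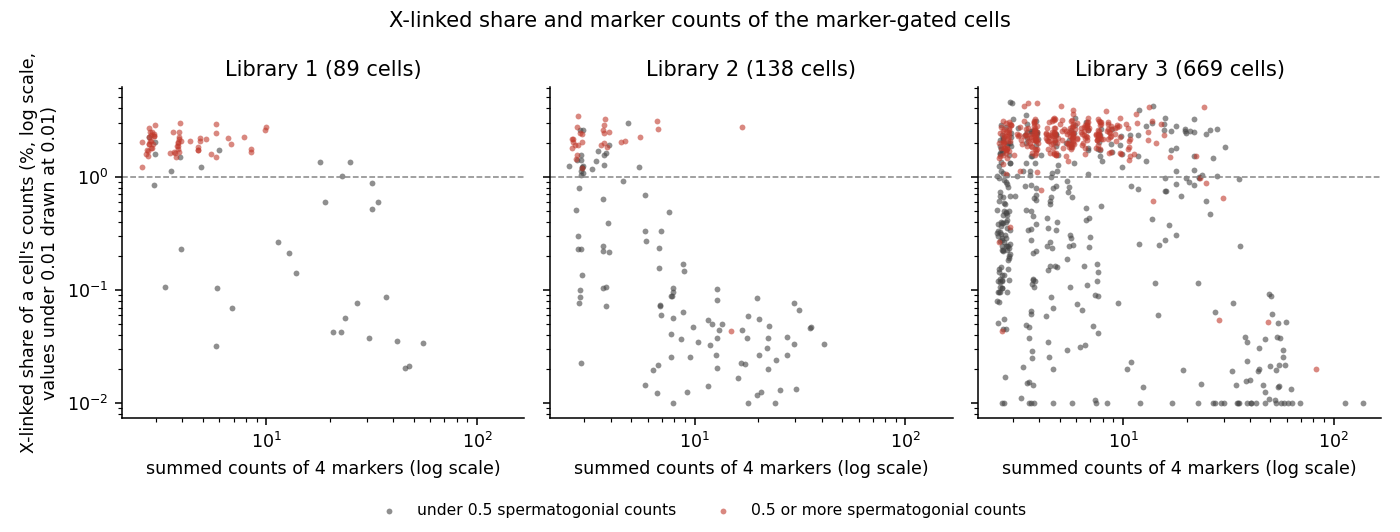
Each point is 1 marker-gated cell of library 1 (89), 2 (138) or 3 (669), by its summed counts of the 4 markers (x, log scale) and the X-linked share of its counts (y, percent, log scale); red points hold 0.5 or more counts of 7 spermatogonial genes and the dashed line is 1%. Of the 385 cells below the line 12 are red, against 357 of the 511 at or above it.

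The 4 marker genes did not separate alike between these cells. Piwil1 stood at 562, 483 and 886 CPM (counts scaled to a common library total, from the summed counts of a group) in the low-X cells of libraries 1 to 3. In the high-X cells it was at 11.7, 2.78 and 61.8 CPM. Mybl1 had 79.9, 79.0 and 150 CPM in low-X and 7.49, 8.40 and 50.9 CPM in high-X cells. Both were thus several-fold apart in each of the 3 libraries, with no overlap for Piwil1 or Mybl1 between the groups.

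Sycp1 and Sycp3 were far closer. Sycp1 had 1087, 671 and 1240 CPM in low-X and 435, 599 and 1241 CPM in high-X cells, with no difference in library 3. Sycp3 had 1351, 923 and 1085 CPM in low-X and 388, 322 and 772 CPM in high-X cells. In detection terms, 73.9%, 82.0% and 65.2% of low-X cells had a Piwil1 count, against 7.58%, 4.08% and 22.2% of high-X cells. For Sycp1 the shares were 82.6%, 80.9% and 83.5% against 93.9%, 93.9% and 95.5%, and a cell without Piwil1 and Mybl1 could enter the gate only through Sycp1 or Sycp3. Among all other kept cells, 37.2%, 34.5% and 46.8% had a Sycp1 count and 18.4%, 21.2% and 17.99% a Piwil1 count.

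Cells just past the marker threshold differed between libraries. At a marker sum of 2.5 to 3 there were 26, 36 and 157 cells in libraries 1 to 3, of which 3.85%, 27.8% and 53.5% were low-X. Just outside, at 2 to 2.5, there were 1, 4 and 41 cells, of which 0%, 0% and 36.6% were low-X. Median marker sums were 22.6, 8.92 and 4.63 counts in low-X cells and 3.81, 2.95 and 4.88 counts in high-X cells. The median was thus larger in low-X cells in libraries 1 and 2 but not in library 3. The largest sums were in low-X cells in each library, with 10, 26 and 52 low-X cells above the highest high-X cell (24.9, 16.8 and 30.5 counts).

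Markers of other testis cells differed between the 2 groups and between libraries. The summed level of 13 Sertoli markers was 23.1, 12.6 and 26.4 CPM in low-X cells and 171, 63.0 and 979 CPM in high-X cells, beside 440, 121 and 287 CPM in all other kept cells. The 8 Leydig markers summed to 5.51, 1.56 and 8.96 CPM in low-X and 92.1, 6.37 and 206 CPM in high-X cells. The 8 immune markers summed to 4.74, 2.18 and 1.28 CPM in low-X and 1.98, 1.96 and 37.3 CPM in high-X cells. This sum was thus lower in low-X cells in library 3 only. The 4 red blood cell markers were at 0, 183 and 1.32 CPM in low-X and at 0, 0 and 178 CPM in high-X cells. Cyp17a1 and Cyp11a1, steroid-producing enzymes of Leydig cells, were at 0 in the low-X cells of each library. The 10 elongating spermatid markers summed to 567, 259 and 416 CPM in low-X and 1377, 2599 and 549 CPM in high-X cells. A low-X sum at 0 allows up to 17.3, 5.80 and 2.42 CPM in libraries 1 to 3 (3 counts). The part of such RNA or cells in the results was not tested.

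Over the summed counts, the X-linked share of the marker-gated cells was 1.34%, 0.541% and 1.24% in libraries 1 to 3 (1.04% ± 0.435, SD, n = 3). In all other kept cells it was 1.03%, 0.851% and 1.16% (1.01% ± 0.156, SD, n = 3). The difference of 0.0260 percentage points (SD 0.312, lower in 1 of 3 libraries) was smaller than the spread between libraries, and its sign changed without library 1 (-0.115) or library 3 (-0.000814). A two-sided exact permutation test gave p = 1, in a design that allows no p below 0.25. Without the cells that held spermatogonial counts, an alternative added after the data were seen, the share of the gated cells was 0.397% ± 0.116. It was then lower than in the other cells in 3 of 3 libraries, by a mean difference of -0.618 percentage points (SD 0.0486). That filter removed 357 of 511 high-X but 12 of 385 low-X cells, and from the gated cells only, so it largely set this difference, which is given with no test.

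The low-X cells had 0.123%, 0.0671% and 0.137% X-linked counts in libraries 1 to 3, below 1% by construction of the boundary, and the late gate was near them. With the rule's other limits kept, the late gate took cells with 2.5 or more marker counts and 1.5 or more counts of Ccna1, Aurka and Plk1. Its X-linked share was 0.159%, 0.200% and 0.124%, and 95.0% of its 1934 cells were under 1%. The early gate (1.5 or more counts of Prdm9, Dmc1 and Meiob, 733 cells) had 1.01%, 0.924% and 1.57%, and only 28.1% of its cells were under 1%. The round gate (1.5 or more Acrv1 counts, 1013 cells) had 1.497%, 1.41% and 1.34%. Y-linked genes, which share the sex body with the X, took 0.00594% ± 0.00355 of low-X and 0.0782% ± 0.00646 of high-X counts (SD, n = 3).

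**Figure D2:**
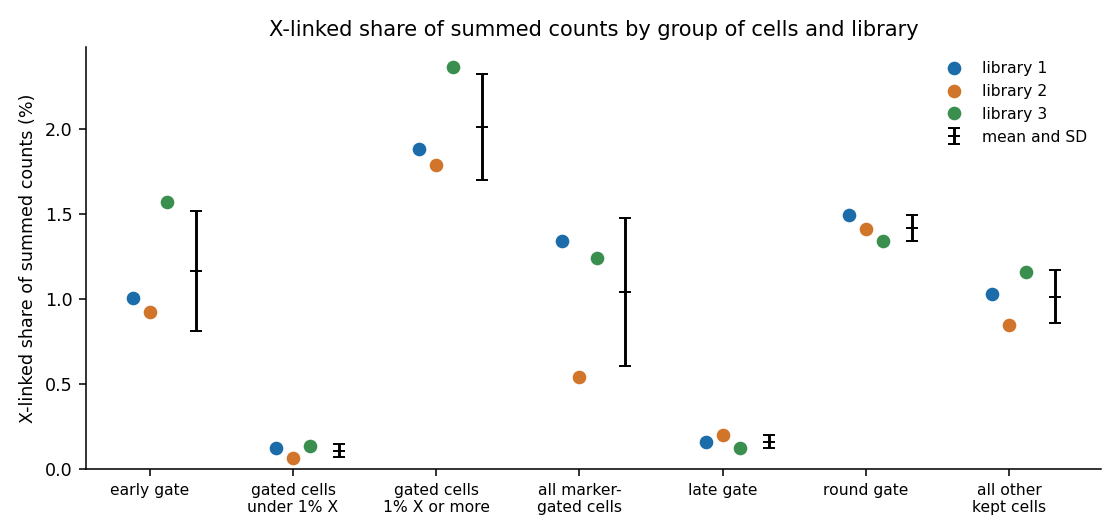
Points give the X-linked share of the summed counts (y, percent) in 7 groups of cells (x) for each of the 3 libraries, with the mean and SD in black. The gated cells under 1% X and the late gate lie under 0.25%, and the marker-gated cells as a whole range from 0.541% to 1.34%.

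Single X-linked genes showed the same contrast. Of 158 X-linked genes at a mean of 20 CPM or more, 149 were lower in low-X than in high-X cells in 3 of 3 libraries, which follows from the boundary. Rps4x, a ribosomal protein gene, was at 0, 0.0101 and 0.901 CPM in low-X and at 307, 88.3 and 106 CPM in high-X cells. Taf7l, a germ cell subunit of the general transcription machinery, was at 0, 1.81 and 9.49 CPM against 338, 315 and 357 CPM. Not every X-linked gene was near 0 in low-X cells. Ndufa1, a subunit of respiratory complex I, had 90.2, 46.2 and 58.1 CPM in low-X cells, beside 90.1, 49.2 and 169 CPM in high-X cells. Ndufa1 was named after its values were seen.

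Autosomal counterparts of X-linked genes were followed in 17 pairs. The X-linked copy was lower in low-X cells in 3 of 3 libraries for 15 pairs, the exceptions being Rbmx and Gk. This too follows from the boundary, beside 149 of 158 X-linked genes at a mean of 20 CPM or more. The autosomal copy was higher in low-X cells in 3 of 3 libraries for 8 pairs and lower for 2, Utp14b and Slc25a31. Of the 16 autosomal copies at a mean of 20 CPM or more, 8 were higher and 1 lower in this way, beside 30.9% and 37.2% of all 7658 autosomal genes at that level. Pdha2, the autosomal E1 alpha subunit of pyruvate dehydrogenase, had 419, 403 and 311 CPM in low-X and 33.6, 140 and 44.3 CPM in high-X cells. Its X-linked partner Pdha1 was at 0, 1.27 and 0.519 CPM against 42.8, 20.1 and 14.99 CPM. Pgk2, the autosomal phosphoglycerate kinase, did not separate, at 46.5, 42.0 and 49.7 CPM in low-X and 73.7, 243 and 16.8 CPM in high-X cells. Against the late gate, where Pgk2 had 237, 288 and 96.8 CPM, the marker-gated cells as a whole were lower (65.3, 97.5 and 33.4 CPM, log2 difference -2.37, SE 0.41, edgeR adjusted p = 0.000198).

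Autosomal genes also set the low-X cells apart. Of 7658 autosomal genes at a mean of 20 CPM or more, 670 (8.75%) were over 2-fold higher in low-X cells in each library and 985 (12.9%) were over 2-fold lower, on CPM plus 10. The list counts between low-X and high-X cells below cover autosomal genes only, since the boundary sets the direction of X-linked ones. Among 14 sperm energy isozymes measured, 7 were higher and 0 lower. Ldhc, the lactate dehydrogenase subunit of germ cells, had 6934, 8327 and 3350 CPM in low-X and 604, 3873 and 303 CPM in high-X cells. Slc2a3, a glucose transporter, had 589, 709 and 1302 CPM against 12.6, 18.6 and 98.9 CPM.

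Of 14 chaperone genes, 5 were higher in low-X cells and 0 lower. Hspa2, a chaperone needed for spermatocytes to complete meiosis, had 1604, 1911 and 1594 CPM in low-X and 102, 561 and 163 CPM in high-X cells. The list of RNA binding and translation control genes was split, with 4 of 18 higher and 4 lower in low-X cells. Among them Ybx2, which binds and stores germ cell mRNA, had 1514, 2179 and 1606 CPM against 81.1, 232 and 130 CPM. Dazl, which promotes germ cell translation, had 568, 124 and 336 CPM in low-X and 1155, 828 and 1295 CPM in high-X cells. Of 19 axoneme and flagellum genes, 6 were higher and 0 lower, among them Dnah8, an outer dynein arm heavy chain, at 737, 600 and 1415 CPM against 47.8, 38.9 and 99.3 CPM. The whole list of 22 genes, any X-linked ones included, summed to 3958, 4054 and 5884 CPM in low-X cells. In high-X cells it summed to 1261, 4844 and 1087 CPM, so the sum went the other way in library 2. The genes with the widest gap, chosen after their values were seen, included Cyp19a1 (aromatase) at 330, 197 and 792 CPM in low-X and 4.59, 3.20 and 17.4 CPM in high-X cells.

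Lists of meiotic chromosome genes were split. Of 12 synaptonemal complex and axis genes, 3 were higher in low-X cells (Sycp2, Syce1 and Hormad1) and 3 lower (Syce2, Smc3 and Trip13). Sycp2, a lateral element protein, had 379, 423 and 958 CPM in low-X and 53.2, 73.0 and 384 CPM in high-X cells. Hormad1, an axis protein that leaves synapsed chromosomes, had 414, 264 and 693 CPM against 98.1, 47.2 and 249 CPM. Of 16 sex body and DNA damage signalling genes, 2 were higher (H2ax, the histone variant phosphorylated in the sex body, and its reader Mdc1) and 2 lower (Brca1 and Atm). Of 23 strand exchange and crossover genes, 4 were higher and 4 lower.

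Of 23 piRNA pathway genes, 7 were over 2-fold higher in low-X cells in each library (Tdrd1, Tdrd5, Tdrd12, Mael, Pld6, Ddx25 and Adad2) and 1 lower (Fkbp6). Mael, which acts in transposon silencing, had 1878, 2954 and 601 CPM in low-X and 589, 821 and 227 CPM in high-X cells. The 23 genes together summed to 5653, 7090 and 6314 CPM in low-X and 2890, 3574 and 3101 CPM in high-X cells, without overlap.

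Because Mybl1 was among the genes that separated the cells, the 250 bases before the annotated start of the canonical transcript (GENCODE vM39, GRCm39) were searched for the MYB core TAACNG or CAACNG on either strand. It was present in 9 of 23 piRNA pathway genes (39.1%), against 41.4% of 21502 protein-coding genes, so its share in the list was near the background. A stricter letter string, AACNGTT, was in 0 of the 23 and in 3.65% of all. The sequences with a match among the 4 markers and the 7 genes higher in low-X cells are shown, so that the position of the match can be read. Mybl1 and Sycp1 of the markers, and Tdrd1, Tdrd5, Mael and Ddx25 of the piRNA genes, had no match in this window. Capitals mark the match, read 5′ to 3′ on the gene's strand. They lie at chr10:88295181-88295430 (Sycp3, plus strand), chr5:128812988-128813237 (Piwil1, plus), chr7:35237171-35237420 (Tdrd12, minus), chr11:59678469-59678718 (Pld6, minus) and chr8:120339176-120339425 (Adad2, plus).
Sycp3: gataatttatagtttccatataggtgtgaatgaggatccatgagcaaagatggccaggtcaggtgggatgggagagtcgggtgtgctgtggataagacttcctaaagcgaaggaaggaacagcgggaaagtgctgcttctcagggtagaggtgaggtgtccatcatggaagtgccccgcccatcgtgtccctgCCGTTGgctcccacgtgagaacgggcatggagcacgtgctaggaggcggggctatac
Piwil1: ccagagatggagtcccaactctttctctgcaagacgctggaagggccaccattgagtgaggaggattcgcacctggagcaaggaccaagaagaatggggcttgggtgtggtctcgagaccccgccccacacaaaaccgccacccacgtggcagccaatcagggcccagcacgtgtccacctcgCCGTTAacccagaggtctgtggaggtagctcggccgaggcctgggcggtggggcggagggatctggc
Tdrd12: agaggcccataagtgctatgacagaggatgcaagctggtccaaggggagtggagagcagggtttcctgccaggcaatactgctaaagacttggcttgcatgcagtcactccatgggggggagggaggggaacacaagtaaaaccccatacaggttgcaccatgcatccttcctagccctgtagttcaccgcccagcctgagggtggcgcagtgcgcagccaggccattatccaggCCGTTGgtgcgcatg
Pld6: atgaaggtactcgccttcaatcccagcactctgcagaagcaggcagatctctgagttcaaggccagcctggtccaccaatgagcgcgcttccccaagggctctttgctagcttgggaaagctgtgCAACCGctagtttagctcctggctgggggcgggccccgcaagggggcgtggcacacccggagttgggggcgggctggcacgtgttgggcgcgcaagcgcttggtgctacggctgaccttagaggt
Adad2: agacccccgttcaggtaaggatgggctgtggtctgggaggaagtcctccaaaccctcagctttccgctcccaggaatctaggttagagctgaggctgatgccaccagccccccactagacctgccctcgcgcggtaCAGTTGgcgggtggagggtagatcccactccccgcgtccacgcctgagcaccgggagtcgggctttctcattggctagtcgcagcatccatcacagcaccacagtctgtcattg

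The summed high-X cells were rich in spermatogonial genes, but not every cell held them. In libraries 1 to 3, 84.8%, 57.1% and 68.9% of the high-X cells held 0.5 or more counts of the 7 spermatogonial genes. Of 10 spermatogonial markers, 8 were over 2-fold higher in high-X than in low-X cells in each library, and Id4 was the only one over 2-fold higher in low-X cells. Stra8, which starts meiosis in response to retinoic acid, had 354, 279 and 261 CPM in high-X and 0, 1.65 and 2.23 CPM in low-X cells. Dmrt1, a factor that keeps spermatogonia mitotic, had 376, 249 and 236 CPM in high-X and 0, 0 and 5.07 CPM in low-X cells. Zbtb16, a marker of undifferentiated spermatogonia, had 112, 96.4 and 102 CPM against 0, 0 and 1.09 CPM. Auts2 had 713, 441 and 1653 CPM in high-X and 4.28, 0 and 21.8 CPM in low-X cells. Ptma, chosen after its values were seen, had 2408, 1235 and 3098 CPM against 108, 58.3 and 111 CPM. Ribosomal protein genes (83) summed to 160010, 83605 and 87837 CPM in high-X and 71690, 62360 and 47098 CPM in low-X cells. The high-X cells also differed between libraries. The 19 acrosome genes summed to 1357, 4799 and 1020 CPM in high-X and 4815, 4176 and 2968 CPM in low-X cells, so library 2 went the other way.

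**Figure D3:**
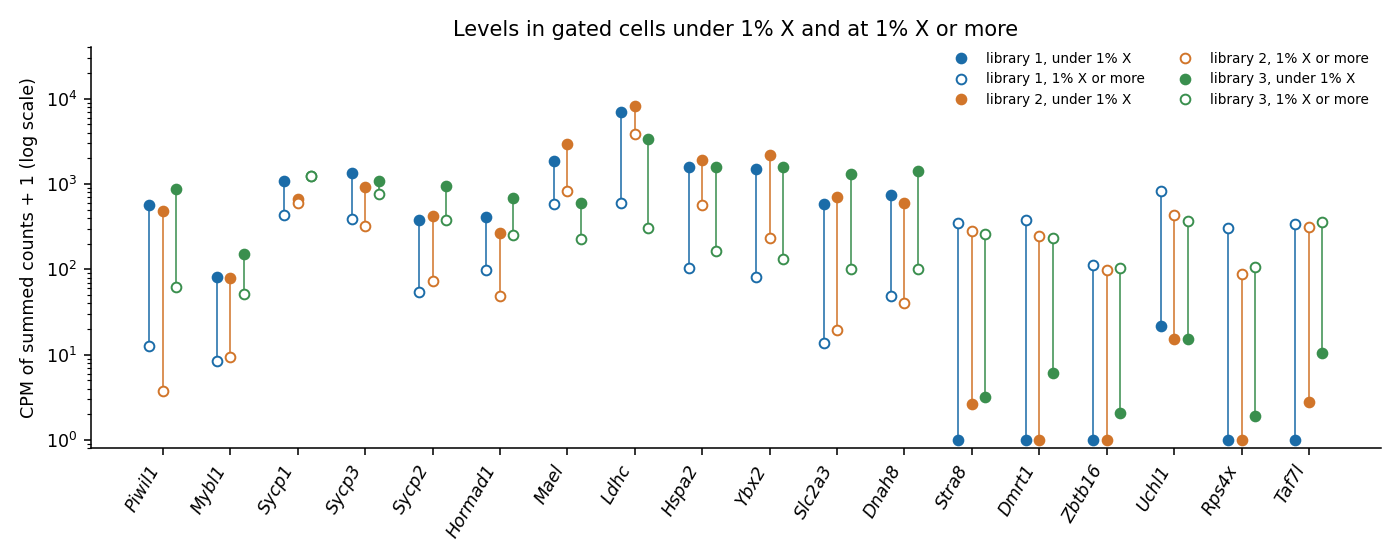
For 18 genes (x) the CPM plus 1 (y, log scale) of the low-X cells (filled) and the high-X cells (open) of each library are joined by a line. Piwil1 to Dnah8 are mostly higher in the low-X cells (Sycp1 is level in library 3 and nearly so in library 2), and Stra8 to Taf7l are higher in the high-X cells.

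An axis built from autosomal genes alone gave a picture that was similar in part. The first principal component of the 651 gated cells with 2000 or more counts, each thinned to 2000, carried 18.5% of the variance of 1000 variable autosomal genes, without the rule's genes and centred within each library. Its high end was led by Rsph1, Ldhc, Meig1, Cox8c and Fabp9, genes of the flagellum, energy supply and sperm formation, and its low end by Ptma, Auts2, Ncl and ribosomal protein genes. Across cells its rank correlation with the X-linked share was -0.50, -0.39 and -0.68 in libraries 1 to 3 (82, 120 and 449 cells), as a description over cells that share a library. With total counts before thinning it was -0.24, 0.26 and 0.02. With the mitochondrial share, which can reflect RNA quality, it was -0.42, -0.73 and -0.24, in library 2 further from 0 than with the X-linked share. The part of the mitochondrial share in this axis was not tested.

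Each library's cells were divided by score into 3 equal groups. The high group held 78.6%, 67.5% and 93.3% low-X cells and the low group 0%, 32.5% and 0%. The middle group differed between libraries, with 0%, 92.5% and 12.8%. Stra8, which was not kept out of the component, was at 0, 3.03 and 6.50 CPM in the high group and at 531, 363 and 225 CPM in the low group. Piwil1, which was left out of the component, was at 462, 262 and 990 CPM in the high group and at 3.22, 184 and 28.3 CPM in the low group.

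**Figure D4:**
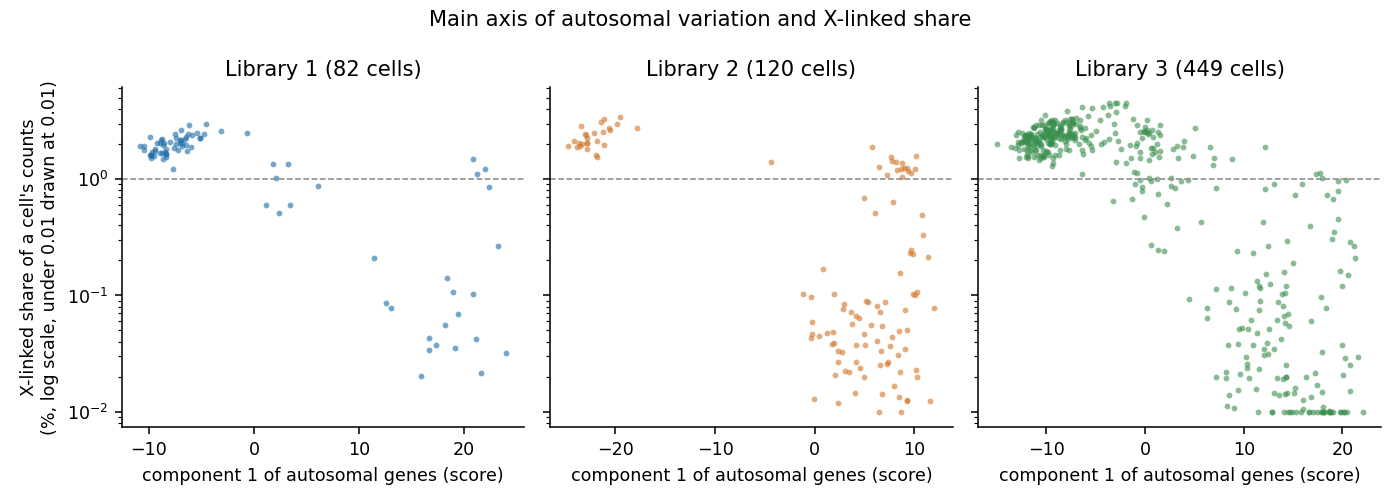
Each point is a marker-gated cell with 2000 or more counts, by its score on component 1 of autosomal genes (x) and its X-linked share (y, percent, log scale), per library. Cells at the low end sit near 2% X-linked counts, and the cells under 1% lie mostly to the right.

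Gene-wise tests compared the marker-gated cells, mixed as they are, with 4 other groups. Counts were summed per library, and edgeR's quasi-likelihood test was run with the library as a block. A gene was called where its Benjamini-Hochberg adjusted p was below 0.05 and its levels were at least 1 log2 unit apart. Differences below are log2, gated cells minus the other group, with the SE. Here a summed level cannot tell a larger part of cells expressing a gene from more RNA per cell. The marker-gated cells and the late gate also differed in depth, with median counts per cell of 4877, 3611 and 2511 against 17118, 8513 and 10331. The limits on Ccna1, Aurka and Plk1 are raw counts, so which of these gates a cell entered depends on its depth. An Aurka count was found in 47.8%, 43.8% and 34.1% of low-X cells. The part of depth in this division was not tested. The round gate was deeper as well, at 16253, 7691 and 6211. The early gate held 154, 31 and 548 cells in libraries 1 to 3 and the round gate 66, 191 and 756. The mitochondrial share of counts, which can reflect RNA quality, was 4.16%, 1.10% and 6.36% in gated cells, 0.826%, 0.211% and 1.07% in the late gate and 1.05%, 0.354% and 2.10% in all other cells, and its part in the results was not tested.

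Against all other kept cells, 8738 of 19221 genes (45.5%) were called, 3228 (16.8%) higher and 5510 (28.7%) lower. The rule left out cells with spermatid genes while the other cells kept them, so lower spermatid genes restate the selection and are given as a description. All 10 elongating spermatid markers tested were lower (median -3.93), as were 15 of 22 flagellum genes and 15 of 19 acrosome genes, against a median of -0.28 over all genes. Smcp, a mitochondrial capsule protein of sperm, had 176, 324 and 142 CPM in gated and 3372, 2490 and 2828 CPM in other cells (-4.45, SE 0.38, edgeR adjusted p = 2.15e-29). Dnajb8, a testis chaperone, was at 47.8, 14.8 and 7.27 against 549, 390 and 522 CPM (-5.38, SE 0.40, adjusted p = 6.99e-36).

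Of 22 sex body and damage signalling genes 11 were higher and 0 lower (median 1.11), and of 26 strand exchange and crossover genes 10 were higher and 0 lower (median 0.81). The rule asked for counts of Piwil1, Mybl1, Sycp1 and Sycp3. Higher genes of the meiotic and piRNA lists thus partly restate the choice of cells. Rpa2, a subunit of the single-strand DNA binding complex RPA, had 238, 77.3 and 62.3 CPM against 26.5, 10.2 and 12.7 CPM (2.18, SE 0.32, edgeR adjusted p = 1.89e-10). Its difference was 1.29 without the cells holding spermatogonial counts, and it stood at 84.6, 49.0 and 24.0 CPM in low-X and at 306, 152 and 101 CPM in high-X cells. Of 14 synaptonemal complex and axis genes 4 were higher and 3 lower, and of 23 piRNA pathway genes 9 were higher and 4 lower. Dazl, an RNA-binding factor of germ cells, had 975, 318 and 811 CPM against 139, 24.3 and 191 CPM (2.24, SE 0.33, adjusted p = 2.60e-10), and this call was lost without the library block.

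Spermatogonial genes were higher too, with 11 of 14 markers higher and 1 lower. Dmrt1 had 260, 68.5 and 119 CPM against 14.5, 5.01 and 17.8 CPM in other cells (2.94, SE 0.33, edgeR adjusted p = 3.35e-17). Sohlh1, a transcription factor of differentiating spermatogonia, had 135, 33.4 and 54.2 CPM against 6.58, 2.32 and 7.14 CPM (3.08, SE 0.35, adjusted p = 5.48e-17). These levels came from the high-X cells, since Sohlh1 was at 0, 0 and 0.621 CPM in low-X cells. Smagp (3.12, SE 0.36, adjusted p = 8.92e-17), a small membrane protein gene, turned to -1.0002 once cells with spermatogonial counts were left out.

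Leaving those cells out, 6228 of 18643 genes (33.4%) were called against all other cells, 9.46% higher and 24.0% lower. Here and below, cells with spermatogonial counts were left out of the gated cells only, not of the group they are compared with. Of the piRNA pathway genes 12 of 23 were then higher and 0 lower (median 1.12), of the crossover genes 11 of 26 were higher and 0 lower, and of the sex body genes 10 of 22 were higher and 0 lower. As above, higher genes of these lists partly restate the choice of cells. Among X-linked genes the counts moved from 173 higher and 189 lower of 690 with all gated cells to 3 higher and 225 lower of 659. The median X-linked difference was -1.13, beside -0.40 over all genes tested. Because the filter took out mostly high-X cells, it largely set these X-linked values, which are given as a description. Dazl was among the genes higher in the gated cells in both fits.

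Against the early gate few genes were called, 225 of 13469 (1.67%), with 204 higher (1.51%) and 21 lower (0.156%) in the marker-gated cells. Of 19 acrosome genes 5 were higher and 0 lower (median 1.35, beside 0.14 over all genes), and of 21 flagellum genes 2 were higher and 0 lower. Spaca3, a sperm acrosome membrane protein, had 51.2, 98.0 and 19.8 CPM in gated cells and 2.09, 5.40 and 0 CPM in the early gate (5.13, SE 0.78, edgeR adjusted p = 0.00814). Fam170b, an acrosomal protein, had 29.9, 102 and 32.4 CPM against 1.03, 0 and 0 CPM (6.70, SE 0.89, adjusted p = 0.00752). Spaca3 was at 74.0, 341 and 9.95 CPM in high-X and at 0, 5.72 and 29.4 CPM in low-X cells, so the group that carried it differed between libraries.

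Among the 21 lower genes, Prss50, a testis protease, had 110, 39.1 and 56.2 CPM in gated cells and 283, 388 and 203 CPM in the early gate (-2.14, SE 0.43, edgeR adjusted p = 0.0179). Of 14 synaptonemal complex genes, of 23 piRNA pathway genes and of 22 sex body genes, 0 were called, with medians of -0.79, -0.03 and -0.54. Of 443 X-linked genes 3 were higher and 2 lower. This comparison was unstable. Without library 1, 0 genes were called (1445 of 14483 at an unadjusted p under 0.05), against 155 without library 2 and 617 without library 3. With all libraries but without the library block, 0 were called (1334 at an unadjusted p under 0.05). DESeq2, run on all 3 libraries with the block, called 468.

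Without the cells holding spermatogonial counts, 2956 of 12417 genes (23.8%) were called against the early gate. Flagellum genes (15 of 21 higher, 0 lower), acrosome genes (15 of 19 higher, 0 lower) and sperm energy isozymes (10 of 14 higher, 0 lower) were then called. Of 26 crossover genes 8 were lower and 1 higher, and of 21 sex body genes 5 were lower and 0 higher, beside 5.34% lower and 18.5% higher over all genes. The early gate was chosen by Prdm9, Dmc1 and Meiob, which the rule kept low. Lower genes of these meiotic lists thus partly restate the choice of cells. Of 356 X-linked genes 124 were lower and 35 higher. As above, the filter took out mostly high-X cells, so this X-linked split is given as a description. Since 301 of the 733 early gate cells held spermatogonial counts and stayed in, the part of this one-sided filter in these calls was not tested. These early cells were themselves mixed, since 44.2%, 35.5% and 23.2% of them were under 1% X in libraries 1 to 3.

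Against the late gate, 6602 of 13469 genes (49.0%) were called, 3511 higher (26.1%) and 3091 lower (22.9%). Scaling changed this balance: with RLE factors 4305 of 6670 calls were higher and with DESeq2 4326 of 6656, and the median over all genes moved from 0.08 to 0.40 and 0.41. The list medians below stand against 0.08. X-linked genes stood out, with 299 of 443 higher and 10 lower (median 2.63). The high-X cells carried this excess, with X-linked shares of 1.88%, 1.79% and 2.37% in libraries 1 to 3. The low-X cells had 0.123%, 0.0671% and 0.137%, beside 0.159%, 0.200% and 0.124% in the late gate. Rpl36a, an X-linked ribosomal protein gene, had 445, 62.3 and 207 CPM in gated cells and 13.6, 0.585 and 9.89 CPM in the late gate (4.36, SE 0.51, edgeR adjusted p = 1.69e-05). All 8 Y-linked genes tested were higher, and 4 of 7 without the cells holding spermatogonial counts. Among the 8 was Uba1y at 54.8, 19.0 and 71.2 CPM against 3.12, 1.43 and 3.39 CPM (3.39, SE 0.42, adjusted p = 1.98e-05). Rpl36a and Uba1y were both over 2-fold lower in low-X than in high-X cells in each library, on CPM plus 10.

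Spermatogonial genes were again among the higher ones (11 of 14 markers, 1 lower). Sdc4, a cell surface proteoglycan, had 174, 44.5 and 88.7 CPM against 4.74, 0 and 0.909 CPM (5.44, SE 0.63, edgeR adjusted p = 1.49e-05). Without the cells holding spermatogonial counts 3680 of 12417 genes (29.6%) were called, 17.4% higher and 12.3% lower, 109 of 356 X-linked genes were higher and 1 lower, and the calls of Sdc4, Rps4x, Zrsr2 and Uty were lost.

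Of 15 sperm energy isozymes 8 were lower and 1 higher (median -1.26), of 16 chaperones 9 were lower and 1 higher, and of 21 flagellum genes 12 were lower and 1 higher. Without the cells holding spermatogonial counts fewer were lower, 4 of 14 isozymes (0 higher, median -0.30), 3 of 16 chaperones (1 higher) and 5 of 21 flagellum genes (3 higher). Ldhc had 2552, 7100 and 1841 CPM in gated cells and 10520, 9916 and 5895 CPM in the late gate (-2.07, SE 0.52, edgeR adjusted p = 0.00331). Tbpl1, a TBP-related factor needed for spermiogenesis, had 321, 616 and 293 CPM against 1410, 1800 and 1426 CPM (-2.68, SE 0.36, adjusted p = 3.39e-05). Pdzd9 had 22.5, 149 and 47.6 CPM against 609, 894 and 594 CPM (-4.20, SE 0.46, adjusted p = 1.49e-05). The calls of Pdzd9 and Tbpl1 held under each alternative run, whereas that of Ldhc was lost without the block and without library 1.

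Of 27 division kinases and cyclins 13 were lower and 8 higher. The late gate was chosen by Ccna1, Aurka and Plk1, genes of this kind that the rule kept low. Lower genes of this list thus partly restate the choice of cells. Spdya, an activator of CDK2 at telomeres, had 111, 288 and 198 CPM against 331, 377 and 391 CPM (-1.64, SE 0.34, edgeR adjusted p = 0.00086). Its low-X level of 319, 377 and 332 CPM was close to the late gate, and its call was lost without the cells holding spermatogonial counts. Of 23 piRNA pathway genes 8 were lower and 4 higher, a split that moved to 4 lower and 9 higher without those cells. Of 26 crossover genes 13 were higher and 5 lower, of 14 synaptonemal complex genes 7 were higher and 2 lower, and of 22 sex body genes 8 were higher and 0 lower, beside 26.1% higher and 22.9% lower over all genes.

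**Figure D5:**
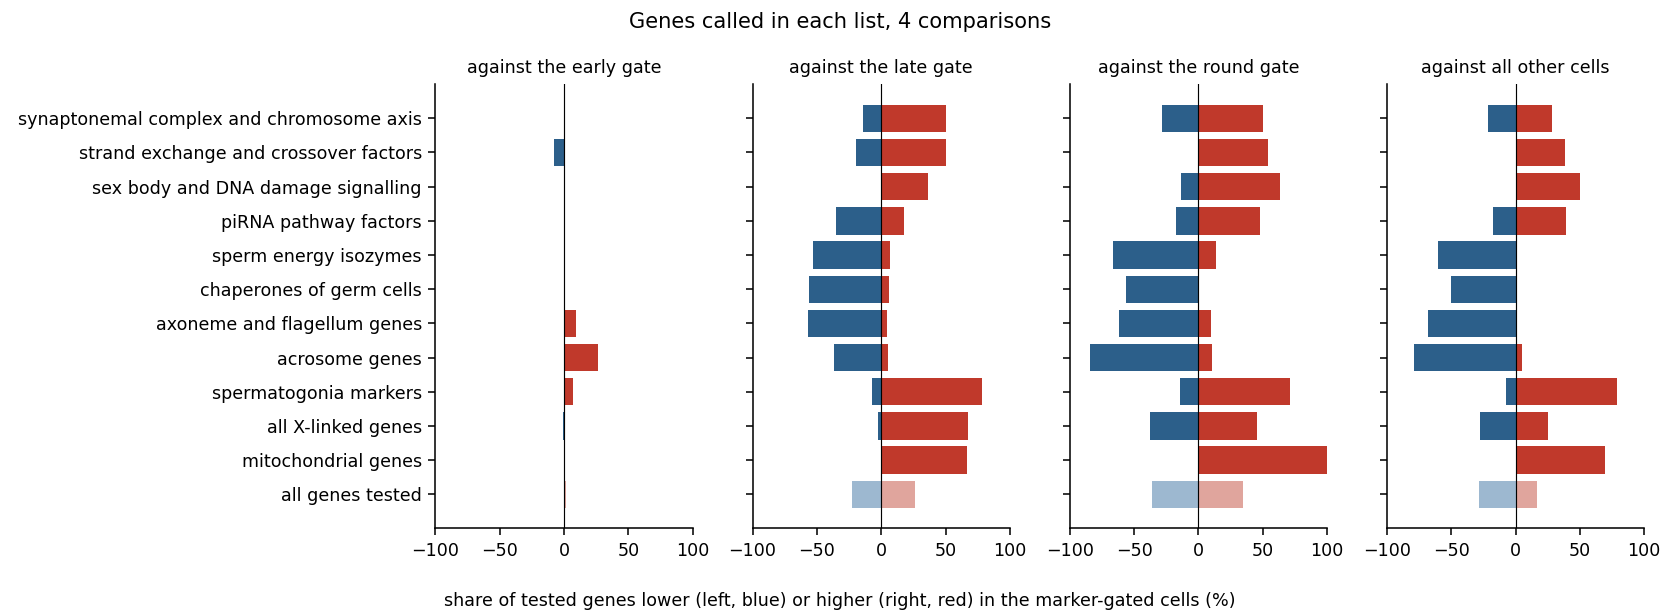
Bars give the share of tested genes (x, percent) called higher (right, red) or lower (left, blue) in the marker-gated cells for 11 gene lists and, in pale colours, for all genes tested, in 4 comparisons. Energy, chaperone and flagellum lists extend to the left against the late gate, while X-linked genes and spermatogonial markers extend to the right.

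Against the round gate, 9491 of 13469 genes (70.5%) were called, 4684 higher (34.8%) and 4807 lower (35.7%). Of 22 sex body genes 14 were higher and 3 lower, of 26 crossover genes 14 were higher and 0 lower, and of 14 synaptonemal complex genes 7 were higher and 4 lower. The round gate did not ask for the 4 markers, so higher genes of the meiotic and piRNA lists partly restate the choice of cells. Atr, the kinase that spreads silencing over the sex chromosomes, had 103, 97.3 and 335 CPM in gated cells and 7.33, 2.30 and 17.1 CPM in the round gate (3.34, SE 0.38, edgeR adjusted p = 1.77e-06). Hormad1 had 195, 204 and 473 CPM against 10.4, 27.4 and 12.4 CPM (3.03, SE 0.43, adjusted p = 1.26e-05).

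The round gate was defined by Acrv1, an acrosome gene that the marker rule kept low, so the spermatid lists restate the choice of cells, with 16 of 19 acrosome genes and 9 of 9 elongating spermatid markers lower. Crem, a transcription factor of spermatids, had 104, 305 and 123 CPM against 804, 938 and 597 CPM (-3.21, SE 0.42, edgeR adjusted p = 5.35e-06). Of 23 piRNA pathway genes 11 were higher and 4 lower (median 0.96). Gtsf1, among the 4 lower, was at 409, 791 and 354 CPM against 1468, 1563 and 2472 CPM (-2.96, SE 0.46, adjusted p = 2.98e-05). All 12 mitochondrial genes tested were higher, and their share of counts in the round gate was 0.00267%, 0.0114% and 0.335%.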

How the data were processed

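Single-cell suspensions of whole adult mouse testis gave 3 droplet libraries (10x Chromium 3-prime, per the labels' protocols). The deposited matrices hold estimated counts per gene and barcode, mostly not whole numbers; how they became fractional is not given in the sources used here. The submitters' processing notes name Cell Ranger 6.0.1 and GRCm39/mm39. Barcodes with at least 1000 counts and 500 genes were kept, giving 8138, 7835 and 9472 cells. No doublets were removed; scores came from Scrublet in Scanpy 1.11.5, and leaving out the highest 8% was an alternative. Counts were summed per library and gate, rounded, and tested with edgeR 4.0.16 (TMM factors, filterByExpr) with the library as a block, because the sums of a library come from the same sample; the 15 rule genes were not tested. Sums had at least 20 cells. The SE is the absolute log2 difference over the square root of F. The test was checked on simulated data. DESeq2 1.42.0 was an alternative.

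Genes were located with GENCODE vM39; X-linked genes numbered 1101. Of 21 lists, 4 listed symbols (Ift25, Sp10, Hrb and Hils1) were not matched. Named genes were the rule's genes, the 4 highest of each list in the gated cells, the 5 largest called differences per direction and comparison at 50 CPM or more in the higher group and in 3 of 3 libraries (provisional names left out), the 8 highest X-linked genes and the gene pairs; others are said to be chosen after their values were seen. The gate and the lists were chosen with earlier results of these data known. Some items are not reported here.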

Additional observations from a re-analysis of the deposited data

How the results depend on the processing

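The number of genes called depended on the processing. Without the replicate block 3964 genes were called against all other cells and 0 against the early gate. With each cell thinned to 1000 counts, in gates set on the full counts, the numbers were 5272 (all other cells), 414 (early), 3092 (late) and 4713 (round). Against the early gate, DESeq2 called 468, no filter on low counts 687, a marker sum of 4.5 or more 0 (1566 at an unadjusted p under 0.05), and leaving out cells with spermatogonial counts, added after the data were seen, 2956; that last setting called 3680 against the late gate. Leaving out 1 library gave 5745 to 8315 genes against all other cells, 0 to 617 against the early gate, 3736 to 6981 against the late gate and 7858 to 10068 against the round gate. The lowest values came without library 3 (all other cells, round) and without library 1 (early, late). The X-linked difference changed sign to -0.277 percentage points at a marker sum of 4.5 or more and to -0.618 without cells holding spermatogonial counts, and ranged from -0.115 to 0.194 with 1 library left out. Smagp against all other cells turned to -1.0002 without cells holding spermatogonial counts. Of 660 alternative values for 61 named gene results, 581 kept direction and call and 78 lost the call. The number of gated cells fell from 896 to 495 at a marker sum of 4.5 or more and to 527 without cells holding spermatogonial counts, and library 1 moved from 1.09% to 0.516% and 0.406%. Low depth of the sums limits values near 0, and 3 libraries limit every test.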
